A study of Homo sapiens with 11 samples.

Results

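The BCL2 family decides whether the outer mitochondrial membrane stays closed or is opened to start apoptosis, and 10 of its genes were taken by symbol from the 58699 genes of the total RNA table: BCL2, BCL2L1, MCL1, BAX, BAK1, BBC3, PMAIP1, BID, BCL2L11 and BIK. All 10 symbols were found, each with 1 identifier. The rule uses the symbols alone. The cells were of the HCT116 line, long established from a human colorectal cancer. They had received an siRNA against luciferase (siLuc, the control, which has no target in these cells) or against Staufen1 (siStau1), a protein that binds double-stranded RNA. Within each siRNA, cells were kept in the solvent DMSO or in decitabine (DAC), a cytidine analogue that traps DNA methyltransferases and so lowers DNA methylation, at 500 nM for 5 days per the labels. Each of the 4 resulting groups held 2 libraries of total RNA, and the labels do not say whether these came from separate cultures.

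The family is read by role. Anti-death members such as BCL2, BCL-XL (the long product of BCL2L1) and MCL1 hold the pore-forming members BAX and BAK1 in check. BH3-only members, named for the short helix they share, either occupy the groove of the anti-death members or act on BAX and BAK1 directly. Once active, BAX and BAK1 permeabilise the outer membrane, cytochrome c leaves, and the apoptosome activates caspases.

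The promoters are shown first because the members differ in how many CpG their start regions hold. Whether these CpG were methylated was not measured. RefSeq promoter windows on GRCh38.p14, 250 bases before to 50 after an annotated start, were matched by symbol for 8 of the 10 genes, in 13 windows (not MCL1 or BIK). BAK1 had 7 CpG in its window, and 36.8% of all 35116 promoter windows held fewer. BCL2L1 had 20 and 16 in its 2 windows, BCL2 had 31, BAX 38, BCL2L11 39 and PMAIP1 42, the last above 94.2% of all windows. BBC3 had 5, in the only window listed for it, and the 5 windows of BID held 6 to 37. The median over all windows was 14. BAK1 and BCL2L1 were called with DAC and PMAIP1 was not. BBC3, with fewer CpG than BAK1, was not called, and BIK, which was called, has no window here. A link between CpG number and calls was not tested. The 250 bases before the start are given 5′ to 3′, with each CpG in capitals, for BAK1 (minus strand, chr6:33580277-33580526), BCL2L1 (minus strand, chr20:31723964-31724213, the first of its windows) and PMAIP1 (plus strand, chr18:59899746-59899995).
BAK1: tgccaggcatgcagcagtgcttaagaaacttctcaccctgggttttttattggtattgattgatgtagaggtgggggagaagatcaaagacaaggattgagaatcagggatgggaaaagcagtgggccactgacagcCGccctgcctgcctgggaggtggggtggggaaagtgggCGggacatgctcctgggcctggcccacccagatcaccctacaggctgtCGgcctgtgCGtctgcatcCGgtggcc
BCL2L1: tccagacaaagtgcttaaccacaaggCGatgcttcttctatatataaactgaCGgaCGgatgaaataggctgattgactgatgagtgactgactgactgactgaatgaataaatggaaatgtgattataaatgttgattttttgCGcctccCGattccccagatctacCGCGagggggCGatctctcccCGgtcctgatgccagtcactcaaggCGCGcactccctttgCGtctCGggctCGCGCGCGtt
PMAIP1: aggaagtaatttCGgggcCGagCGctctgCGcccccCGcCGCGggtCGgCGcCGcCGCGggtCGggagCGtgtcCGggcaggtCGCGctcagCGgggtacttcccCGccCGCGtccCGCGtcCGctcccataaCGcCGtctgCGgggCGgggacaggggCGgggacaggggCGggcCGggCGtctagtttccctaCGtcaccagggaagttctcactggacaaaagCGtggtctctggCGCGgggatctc
These runs hold 5, 17 and 36 CpG.

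Motif letters were searched on both strands of the 13 windows. The interferon-stimulated response element, written GAAANNGAAA, matched in BBC3 alone, where 2 overlapping matches lie 25 to 40 bases after the start (minus strand, chr19:47232622-47232647, matches in capitals).
BBC3: aatgaGAAACTGAAAAAGAAAcggaa
This element was found in 3.57% of all windows. The STAT element TTCNNNGAA, present in 7.66% of windows, matched in none of the 13. The E-box CACGTG, present in 7.26% of windows, matched 4 times in BAX, once in BBC3 and once in BID, at a site that lies in 2 of its overlapping windows. A match is a stretch of letters only, and no binding or methylation was measured here.

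The total RNA table gives 1 FPKM value per gene and group (fragments scaled for transcript length and for library size), not 1 per library. No spread between libraries, no interval and no depth can therefore be given for any member, and neighbours in the order of levels cannot be told apart beyond replicate error. A difference is called where the authors' deposited table gives a q-value under 0.05 (Cuffdiff, adjusted over the tests of all 6 pairwise comparisons). Ratios are log2 of FPKM plus 0.1, DAC over DMSO or siStau1 over siLuc. RNA was from whole cultures, so fewer cells with a transcript and less of it per cell cannot be told apart. STAU1, the siRNA's target, was at 35.5 FPKM (DMSO) and 33.7 FPKM (DAC) in siLuc cells and at 29.98 and 27.1 FPKM in siStau1 cells. Neither difference of STAU1 between siRNAs was called in the authors' deposited table (q-values 0.767 and 0.685), so siStau1 and siLuc name the siRNA that the labels give, and a lower level of the target was not shown. Of 11 epithelial and colorectal markers 7 were at 1 FPKM or more in every group, EPCAM, KRT8 and KRT18 among them, while VIL1, CDX1, CEACAM5 and LGR5 were under 1 in all 4, with CDX1, CEACAM5 and LGR5 listed at 0 in both DMSO groups. The summed level of these markers was 2683 FPKM with DMSO and 8344 FPKM with DAC in siLuc cells, and 2201 and 6064 FPKM in siStau1 cells. The largest parts were KRT18, at 681 and 3469 FPKM in siLuc, and KRT8, at 1103 and 3159 FPKM. Neither was called with DAC in siLuc (q-values 0.0773 and 0.196 in the authors' deposited table). With DAC in siLuc KRT19 rose from 537 to 1419 FPKM and EPCAM fell from 259 to 117 FPKM (q-values 0.00162 and 0.0157 in the authors' deposited table), and CDX1 was called higher. In siStau1 KRT19, KRT18 and CDX1 were called higher. Of 12 markers of fibroblasts, leukocytes and endothelium, 3 reached 1 FPKM in each DAC group, 2 in siLuc DMSO and none in siStau1 DMSO. Their summed level was 3.44 FPKM with DMSO and 30.8 with DAC in siLuc cells, and 1.71 and 17.2 FPKM in siStau1 cells. PTPRC, which defines leukocytes, was listed at 0 without DAC under either siRNA, and with DAC at 0.174 FPKM (siLuc) and 0.820 FPKM (siStau1). Called higher with DAC were PECAM1 in siLuc, and PTPRC, COL1A1 and VWF in siStau1. Of these PECAM1, PTPRC and VWF were under 1 FPKM in every group. The part of these markers in the results below was not tested.

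In siLuc DMSO the family was led by BCL2L1 and MCL1, with 62.1 and 58.1 FPKM. PMAIP1 (41.9), BAX (35.8) and BID (29.7) followed, then BIK (13.4), BAK1 (9.91), BBC3 (5.76) and BCL2L11 (3.75). BCL2 itself, the founding member of the family, was lowest at 0.626 FPKM. Of the genes with at least 1 FPKM in that group, 87.7% lay below BCL2L1, 49.1% below BAK1 and 35.6% below BBC3. BCL2 was last in all 4 groups, and BCL2L1 was first in all but siStau1 DMSO, where MCL1, PMAIP1 and BID stood above it.

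**Figure D1:**
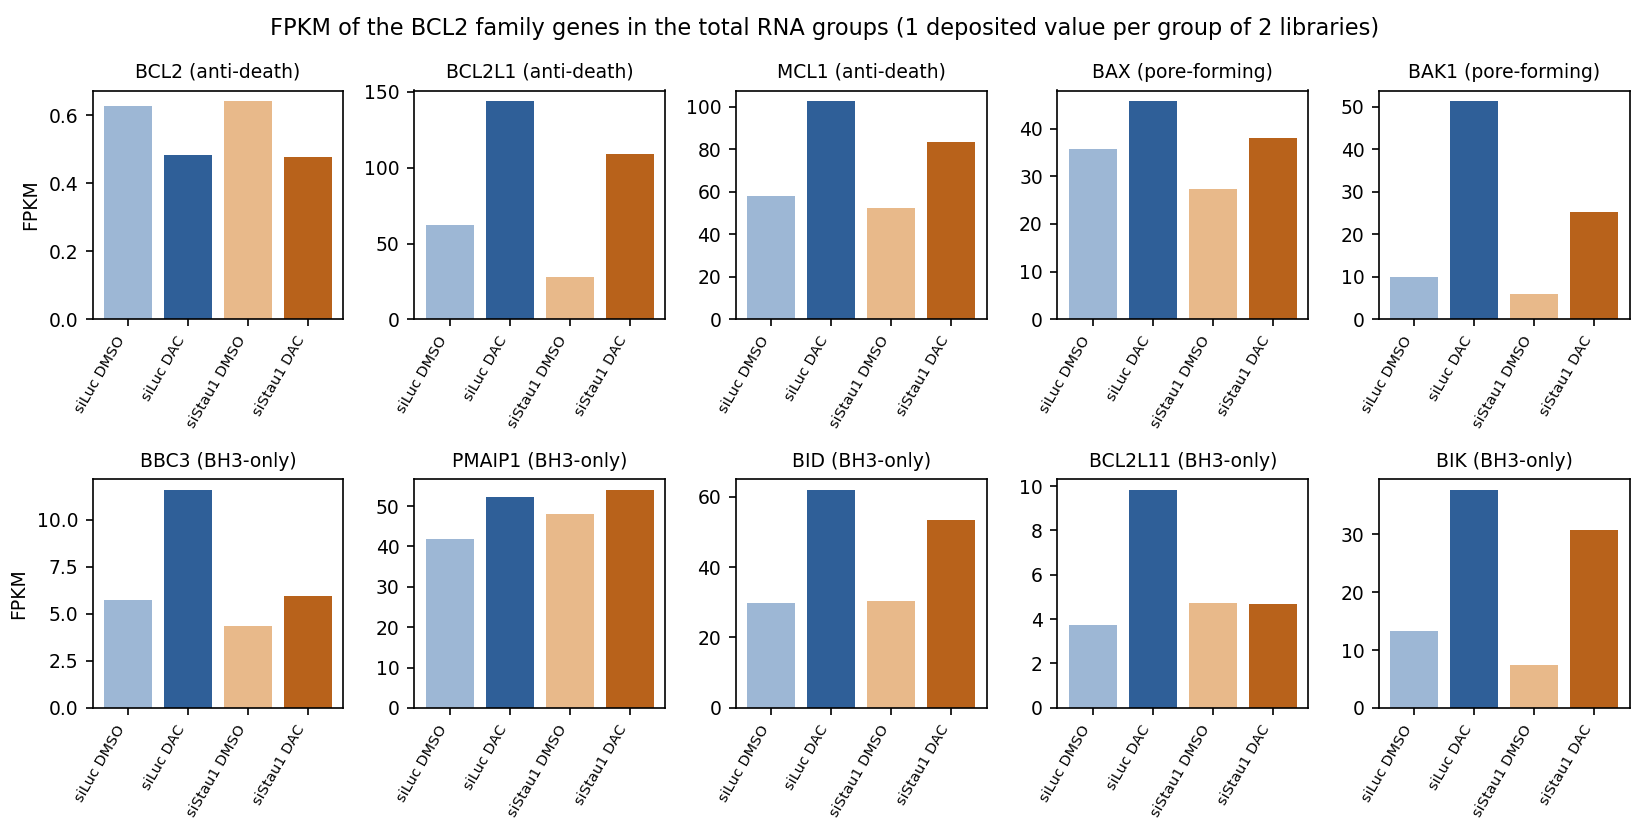
Bars give the deposited FPKM (linear axis from 0, scaled for each gene) of the 10 genes in the 4 total RNA groups, 1 value per group of 2 libraries and therefore no error bars. All genes but BCL2 and BCL2L11 are higher with DAC under either siRNA, and of these BAK1, BIK and BCL2L1 were called. PMAIP1 stays between 41.9 and 54.0 FPKM, and BCL2 stays under 1 FPKM.

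DAC in control cells was examined first, by siLuc DAC against siLuc DMSO. The pore-forming BAK1, the BH3-only BIK and the anti-death BCL2L1 rose, by 5.18-fold, 2.82-fold and 2.32-fold. No member was called lower. These are 3 of 10 members, all 10 of them tested, while 13.5% of the 17504 genes tested were called, 8.71% as higher and 4.78% as lower. The median log2 ratio of the members was 1.03, beside 0.23 for all genes tested, and 9 of 10 ratios were above 0. An unadjusted p under 0.05 was given to 6 of the 10 members in the authors' deposited table, and to 28.9% of genes tested.

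BAK1 (ENSG00000030110.12, chromosome 6, 33572547 to 33580293, GRCh38, minus strand) encodes a pore former that resides in the mitochondrial membrane. In siLuc cells it was at 9.91 FPKM with DMSO and 51.3 FPKM with DAC, and in siStau1 cells at 6.05 and 25.3 FPKM. Both DAC groups were above both DMSO groups. The same order of groups held for BIK and BCL2L1, and for BAX, BID, BBC3, PMAIP1 and MCL1, which were not called with DAC. Its log2 ratio with DAC in siLuc was 2.36 (q-value 0.00162 in the authors' deposited table, the smallest value that table holds). BAX, the other pore former, is mostly cytosolic until activated and lies at chromosome 19, 48954815 to 48961798 (ENSG00000087088.19, plus strand). BAX was at 35.8 FPKM with DMSO and 45.7 with DAC in siLuc cells, and at 27.2 and 38.1 FPKM in siStau1 cells. Its log2 ratio of 0.35 in siLuc was not called in the authors' deposited table (q-value 0.823). The ratio of BAX to BAK1 was 3.61 in siLuc DMSO and 0.891 in siLuc DAC, so BAK1 went from 21.7% to 52.9% of the summed level of the pair. In siStau1 cells the ratio was 4.50 with DMSO and 1.51 with DAC, and BAK1 went from 18.2% to 39.9%, so BAX stayed above BAK1. The pseudogenes BAK1P1 and BAK1P2, which resemble BAK1, were at most 0.406 FPKM in any group.

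BIK (ENSG00000100290.2, chromosome 22, 43110748 to 43129712, plus strand) encodes a BH3-only protein of the endoplasmic reticulum. With siLuc it was at 13.4 FPKM in DMSO and 37.7 FPKM in DAC, and with siStau1 at 7.45 and 30.8 FPKM. Its log2 ratio with DAC in siLuc was 1.49 (q-value 0.0142 in the authors' deposited table). Both DAC groups again lay above both DMSO groups. BID (ENSG00000015475.18, chromosome 22, 17734138 to 17774770), which caspase 8 cuts to link death receptors to mitochondria, was at 29.7 FPKM with DMSO and 61.9 FPKM with DAC in siLuc cells and at 30.4 and 53.4 FPKM in siStau1 cells. BID had a log2 ratio of 1.06 in siLuc and was not called (q-value 0.190 in the authors' deposited table).

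BBC3 and PMAIP1 encode PUMA and NOXA, BH3-only proteins that cells make under stress, and were not called. BBC3 (ENSG00000105327.17, chromosome 19, 47220822 to 47232766) was at 5.76 FPKM (DMSO) and 11.6 FPKM (DAC) in siLuc cells and at 4.33 and 5.95 FPKM in siStau1 cells, with a log2 ratio of 1.00 in siLuc (q-value 0.238 in the authors' deposited table). Its value in siLuc DAC stood above the other 3 groups. PMAIP1 (ENSG00000141682.11, chromosome 18, 59899948 to 59904306) was at 41.9 and 52.3 FPKM in siLuc cells and at 48.0 and 54.0 FPKM in siStau1 cells, DMSO first. Relative to its level this was the narrowest range of any member, and its log2 ratio in siLuc was 0.32 (q-value 0.698 in the authors' deposited table).

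BCL2L11 encodes BIM, a BH3-only protein that binds all the anti-death members. In siLuc cells it was at 3.75 FPKM without and 9.83 FPKM with DAC, while in siStau1 cells it was at 4.74 and 4.66 FPKM. The log2 ratio of 1.36 in siLuc was larger than that of BCL2L1 but was not called (q-value 0.460 in the authors' deposited table). The gene (ENSG00000153094.22, chromosome 2, 111119378 to 111168447, plus strand) lies wholly inside MIR4435-2HG, a long non-coding RNA gene on the other strand, and the deposited locus that holds it spans 1152 kb against 49.1 kb for the gene. MIR4435-2HG was itself at 20.3 FPKM without and 68.4 FPKM with DAC in siLuc cells, and at 12.0 and 59.8 FPKM in siStau1 cells. The library kit keeps strand, per the labels, but whether the counting used it is not given in the sources used here, so the level of BCL2L11 is uncertain, and the part of the antisense gene in it was not tested. Among the other members, genes overlapping MCL1, BCL2L1 and BAK1 were at most 2.01 FPKM, and those overlapping BCL2, BBC3 and BID were listed at 0. The deposited loci of BAK1 and MCL1 were also wider than the genes, at 53.3 kb against 7.75 kb and 31.2 kb against 5.19 kb.

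Among the anti-death members, BCL2L1 (ENSG00000171552.12, chromosome 20, 31664452 to 31723989, minus strand) was at 62.1 FPKM with DMSO and 144 FPKM with DAC in siLuc cells. In siStau1 cells it was at 27.7 and 109 FPKM, and both DAC groups lay above both DMSO groups. Its log2 ratio with DAC in siLuc was 1.21 (q-value 0.0279 in the authors' deposited table). The gene makes a long anti-death and a short pro-death splice form, which a value per gene does not separate. MCL1 (ENSG00000143384.12, chromosome 1, 150574551 to 150579738), a short-lived anti-death protein, was at 58.1 and 102 FPKM in siLuc cells and at 52.5 and 83.3 FPKM in siStau1 cells, DMSO first. Its log2 ratio of 0.82 in siLuc was not called (q-value 0.203 in the authors' deposited table). BCL2 (ENSG00000171791.12, chromosome 18, 63123346 to 63320128) was at 0.626 and 0.484 FPKM in siLuc cells and at 0.641 and 0.477 FPKM in siStau1 cells, and was not called (q-value 0.849 in the authors' deposited table). It held at most 0.793% of the summed anti-death level in any group.

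The same comparison in siStau1 cells called the same 3 members: BAK1, BIK and BCL2L1 rose with DAC, by 4.18-fold, 4.14-fold and 3.94-fold. No member was called lower. In this arm 7.46% of the 16979 genes tested were called, 4.56% as higher and 2.89% as lower. The log2 ratios were 2.05, 2.03 and 1.98, and the authors' deposited table gives 0.00162 as the q-value of each. The other 7 members had log2 ratios from -0.36 for BCL2 to 0.81 for BID, and were not called. An unadjusted p under 0.05 was given to 3 of the 10 members, the called ones, in the authors' deposited table, and to 19% of genes tested. The median over the 10 members was 0.57, beside 0.11 for all genes tested. BCL2L11 differed most between the arms, with log2 ratios of 1.36 (siLuc) and -0.02 (siStau1), where it was 4.74 FPKM with DMSO and 4.66 with DAC.

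For the 2 arms side by side, the log2 ratio with DAC in siLuc was subtracted from that in siStau1. The result had a median of -0.15 over the 10 members and ranged from -1.39 for BCL2L11 to 0.77 for BCL2L1. It was 0.54 for BIK and -0.32 for BAK1. The level in siStau1 DMSO is the denominator of the ratio in siStau1. It was below that in siLuc DMSO for BCL2L1, BIK and BAX (27.7 against 62.1, 7.45 against 13.4 and 27.2 against 35.8 FPKM), whose differences were above 0. It was also below that in siLuc DMSO for BAK1, BBC3 and MCL1 (6.05 against 9.91, 4.33 against 5.76 and 52.5 against 58.1 FPKM), whose differences were below 0. With 1 value per group this difference could not be tested for any member.

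Without DAC, the Staufen1 siRNA was compared with the control siRNA (siStau1 DMSO against siLuc DMSO). In this Cuffdiff comparison 0 of 10 members were called in the authors' deposited table, and 1, BCL2L1, had an unadjusted p under 0.05. Over all 15893 genes tested 0.799% were called (0.333% higher and 0.466% lower), and 4.3% had an unadjusted p under 0.05. BCL2L1 was at 27.7 FPKM against 62.1 in siLuc, a log2 ratio of -1.16 (unadjusted p 0.00905, q-value 0.0926 in the authors' deposited table). BIK and BAK1 had log2 ratios of -0.83 and -0.70, with q-values of 0.394 and 0.419 in the authors' deposited table. The other 7 members lay between -0.40 and 0.33, with a median over all 10 of -0.27, beside -0.02 for all genes tested.

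Under DAC, siStau1 against siLuc called BAK1 alone, which fell from 51.3 to 25.3 FPKM, a log2 ratio of -1.02 (q-value 0.0285 in the authors' deposited table). BCL2 was not tested there, so this is 1 of 9 members tested, and 0.904% of the 17263 genes tested were called, 0.469% as lower and 0.434% as higher. An unadjusted p under 0.05 was given to 2 members, BAK1 and BBC3, and to 6.95% of genes. Adjusted within this comparison only, neither BAK1 nor any of the 17263 genes passed. BBC3 was at 5.95 against 11.6 FPKM, a log2 ratio of -0.95 (unadjusted p 0.0486, q-value 0.274 in the authors' deposited table). BCL2L11 was at 4.66 against 9.83 FPKM, a log2 ratio of -1.06 (q-value 0.507 there). The remaining 7 members lay between -0.40 and 0.05 on the log2 scale. The median over the 10 was -0.29, beside -0.14 for all genes tested.

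Set against siLuc DMSO, the combination of siStau1 and DAC had BAK1 higher, at 25.3 against 9.91 FPKM, with a log2 ratio of 1.34 (q-value 0.0157 in the authors' deposited table). It was the 1 member of 10 called in that comparison, in which 4.98% of 16909 genes tested were called, 4.02% as higher. BIK had a log2 ratio of 1.20 and BCL2L1 of 0.82, with q-values of 0.0819 and 0.227 in the authors' deposited table. BBC3, at 5.95 against 5.76 FPKM, and BAX, at 38.1 against 35.8 FPKM, had log2 ratios of 0.05 and 0.09. This comparison shares its groups with those above and adds no separate evidence.

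How many members were called depended on the limit. At a q-value under 0.01 in the authors' deposited table BAK1 alone was called with DAC in siLuc (7.97% of genes tested), the same 3 members with DAC in siStau1 (3.93%), and none for siStau1 against siLuc in DMSO (0.346%) or in DAC (0.197%). With the deposited p-values adjusted within each comparison, the called members with DAC were again BAK1, BIK and BCL2L1 in siLuc (16.8% of genes tested) and in siStau1 (7.43%), and none for siStau1 against siLuc in DMSO (0.208%) or in DAC (0%).

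The ratios followed base composition in part, so each was also centred on the median of genes of like GC content (20 bins of the longest transcript's GC). BAK1 and BAX fall in the same bin, with transcripts of 58.8% and 58.9% GC, where the median gene had a log2 ratio of 0.79 with DAC in siLuc. After centring, BAK1 was at 1.57, BIK at 0.94 and BCL2L1 at 0.45 in siLuc, and at 1.42, 1.60 and 1.42 in siStau1. BCL2L11 and MCL1, not called, were at 1.52 and 1.15 in siLuc, above BCL2L1 and BIK, and at 0.09 and 0.97 in siStau1. BAX and BBC3, not called and above 0 with DAC before centring, were then at -0.44 and -0.20 in siLuc and at -0.15 and -0.41 in siStau1. PMAIP1, whose transcript has 37.2% GC, went the other way, from 0.32 to 1.06 in siLuc and from 0.17 to 0.79 in siStau1. BID (49.7% GC) stayed at 1.06 in siLuc, so PMAIP1 and BID, not called, also lay above BIK and BCL2L1 there. For siStau1 against siLuc under DAC, BAK1 was at -0.54 after centring, and the signs of BCL2L1, BAX, PMAIP1 and BIK, none of them called, changed. Centring on the median of all genes left the sign of every member unchanged in the 4 comparisons, except for BCL2 in siStau1 against siLuc under DAC.

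**Figure D2:**
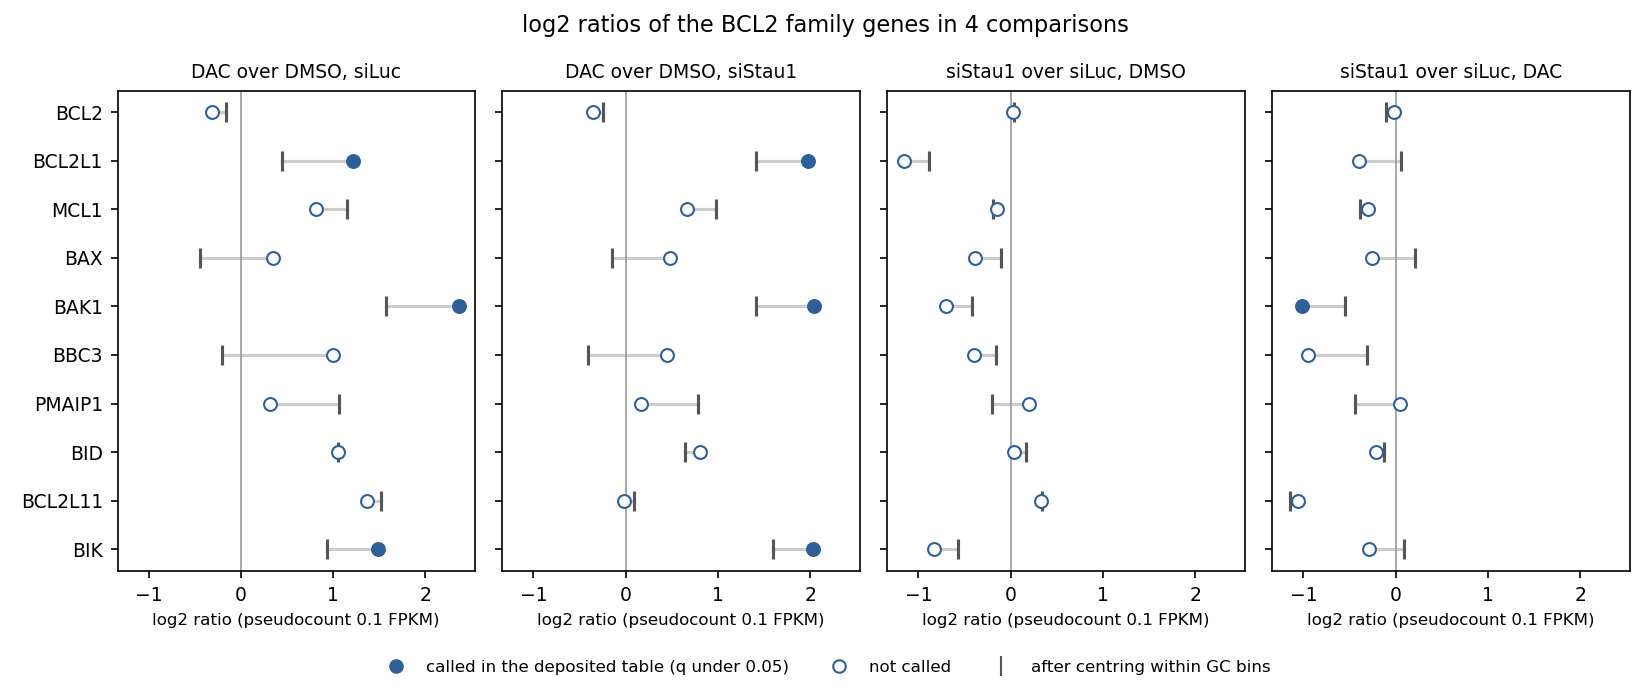
Points give the log2 ratio of FPKM plus 0.1 for each gene in 4 comparisons, filled where the deposited table calls it at a q-value under 0.05, and bars give the ratio after centring within GC bins. BAK1, BIK and BCL2L1 are filled with DAC under both siRNAs and stay above 0 after centring. BIK and BCL2L1, the latter at 0.45, are then below MCL1, BCL2L11, PMAIP1 and BID in siLuc, none of them called. With DAC BAX and BBC3 cross 0 under both siRNAs, and BCL2L11 does so in siStau1.

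Levels were also added up by role, since FPKM is per length. The anti-death sum was 121 FPKM with DMSO and 247 FPKM with DAC in siLuc cells, and 80.8 and 193 FPKM in siStau1 cells. The pore-forming sum was 45.7 and 97.0 FPKM in siLuc cells, and 33.3 and 63.4 FPKM in siStau1 cells. For the BH3-only sum these were 94.4 and 173 FPKM, and 95.0 and 149 FPKM. With DAC in siLuc the sums were 2.04, 2.12 and 1.84 times those with DMSO, and the FPKM sum over all genes was 1.59 times as large. The anti-death sum was 2.64 times the pore-forming sum in siLuc DMSO and 2.54 times in siLuc DAC. The BH3-only sum was 0.782 and 0.703 times the anti-death sum. With DAC in siStau1 the 3 sums were 2.39, 1.90 and 1.57 times those with DMSO, and the sum over all genes was 1.54 times as large. There the ratio of anti-death to pore-forming FPKM was 2.43 with DMSO and 3.05 with DAC.

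Within roles the make-up also differed between groups. BCL2L1 held 51.4% of the anti-death sum without and 58.3% with DAC in siLuc cells, and 34.3% and 56.6% in siStau1 cells, and MCL1 held nearly all of the rest. The group siStau1 DMSO was thus the only 1 of the 4 in which MCL1 exceeded BCL2L1. It was also the only 1 in which the BH3-only sum exceeded the anti-death sum, at 1.18 times against 0.703 to 0.782 times in the others. BIK held 14.1% of the BH3-only sum without and 21.7% with DAC in siLuc cells, and 7.84% and 20.7% in siStau1 cells, while PMAIP1 and BID together held 65.9% to 82.6%. These shares are of RNA, carry no error and were not tested.

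**Figure D3:**
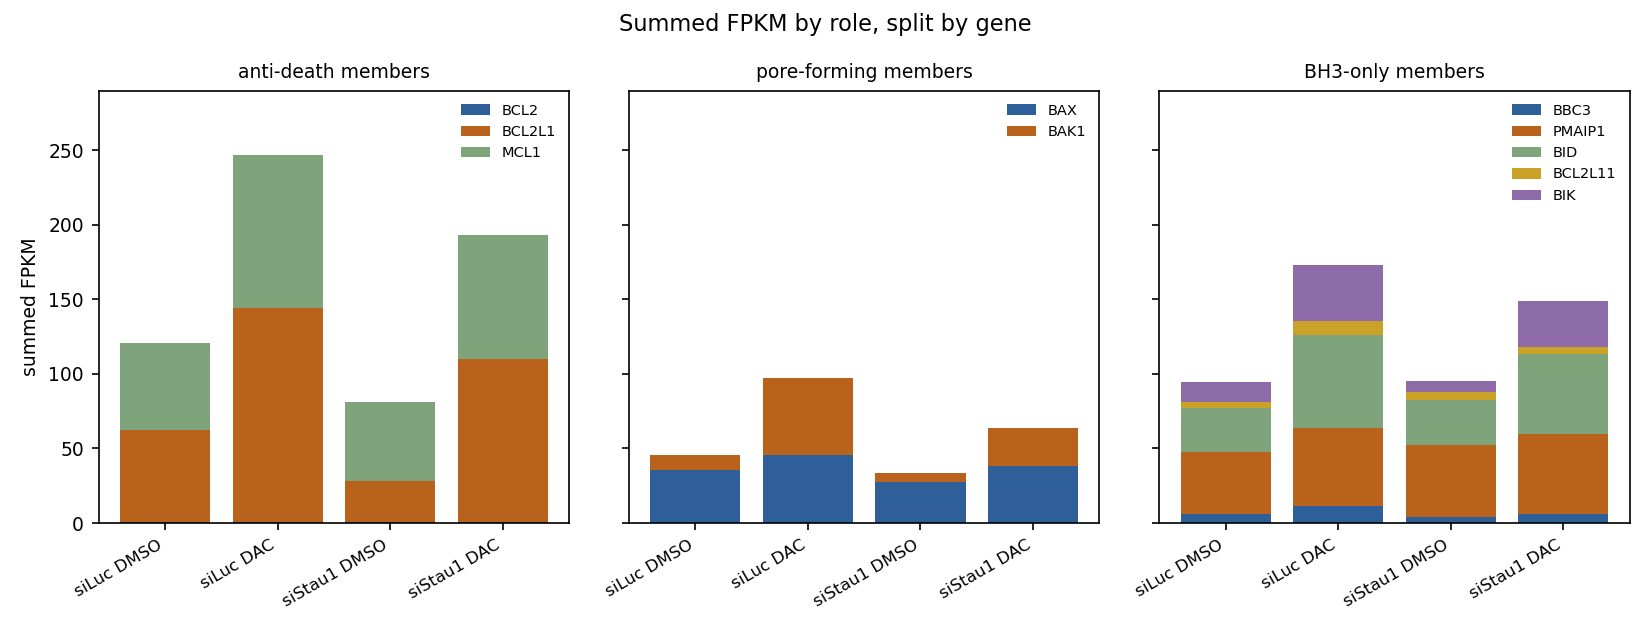
Stacked bars give summed FPKM (linear axis from 0) of the anti-death, pore-forming and BH3-only members in each total RNA group, split by gene, with no error bars because each group has 1 deposited value. The BAK1 part of the pore-forming bar grows from 21.7% to 52.9% with DAC in siLuc and from 18.2% to 39.9% in siStau1. The BCL2L1 part of the anti-death bar is smallest in siStau1 DMSO.

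The rest of the pathway was described from 4 lists of its genes. Their counts are to be read against the 13.5% of all genes tested that were called with DAC in siLuc and the 7.46% called in siStau1. Of 13 other BCL2 family genes 10 were tested with DAC in siLuc, and 2 were called, with 5 at an unadjusted p under 0.05. That p was given to 28.9% of all genes tested in siLuc and to 19% in siStau1. BOK, a pore-forming relative of BAX and BAK1, rose from 5.57 to 16.5 FPKM (q-value 0.00162 in the authors' deposited table), although after centring within GC bins its log2 ratio went from 1.55 to 0.35. BNIP3, an outer-membrane protein best known for mitophagy, fell from 34.1 to 10.1 FPKM (q-value 0.00415 in the authors' deposited table). The median over the tested genes was -0.23, and over all 13 genes it was 0.09, so its sign depends on the genes that were not tested. In siStau1, 0 of 9 tested were called by Cuffdiff, with 2 at an unadjusted p under 0.05, and the median of those tested was 0.37.

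Downstream of the pore, 11 genes of mitochondrial release, the apoptosome and the caspases were tested (DIABLO, with 2 identifiers, was left out). With DAC in siLuc 1 was called lower and none higher, with 4 at an unadjusted p under 0.05. VDAC3, a channel of the outer membrane, fell from 180 to 60.1 FPKM (q-value 0.00162 in the authors' deposited table). In siStau1, where VDAC3 was at 165 FPKM with DMSO and 88.7 FPKM with DAC, 0 of 11 were called by Cuffdiff, with 2 at an unadjusted p under 0.05. Of the inhibitors of apoptosis, which block caspases or their activation, 5 of 7 were tested and 0 were called in siLuc by Cuffdiff, with 2 at an unadjusted p under 0.05. The median log2 ratio of the tested genes was -0.53 in siLuc and -0.51 in siStau1. Over all 7 genes it was -0.53 in siLuc and 0 in siStau1 before centring, and 0.06 and 0.02 after centring within GC bins. In siStau1 it thus moved mostly with the genes that were not tested. Before centring XIAP, BIRC2 and BIRC5 were below 0 in both arms, and BIRC6 was above 0 in both. In siStau1 BIRC3 (cIAP2, also a target of NF-kB) rose from 2.83 to 7.19 FPKM (q-value 0.0201 in the authors' deposited table), and in siLuc it was at 3.67 and 3.44 FPKM. After centring within GC bins its log2 ratio went from 1.31 to 2.03 in siStau1 and from -0.09 to 0.86 in siLuc, where it was not called.

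Upstream, 12 of 13 regulators of the members' transcription or turnover were tested, and 0 were called by Cuffdiff with DAC in either arm, with 1 at an unadjusted p under 0.05 in each. The median of the tested genes of this list was 0.41 in siLuc and 0.24 in siStau1, beside 1.03 and 0.57 for the 10 members. Between siStau1 and siLuc 0 genes of these 4 lists were called by Cuffdiff, in DMSO or in DAC. The lists had 10, 11, 5 and 12 genes tested in each. Of all genes tested 0.799% were called in DMSO and 0.904% in DAC, and at these shares lists this short would hold few or no calls. At an unadjusted p under 0.05 there were 0 in DMSO and, in the order of the lists above, 0, 1, 2 and 0 in DAC. Of all genes tested these were 4.3% in DMSO and 6.95% in DAC.

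**Figure D4:**
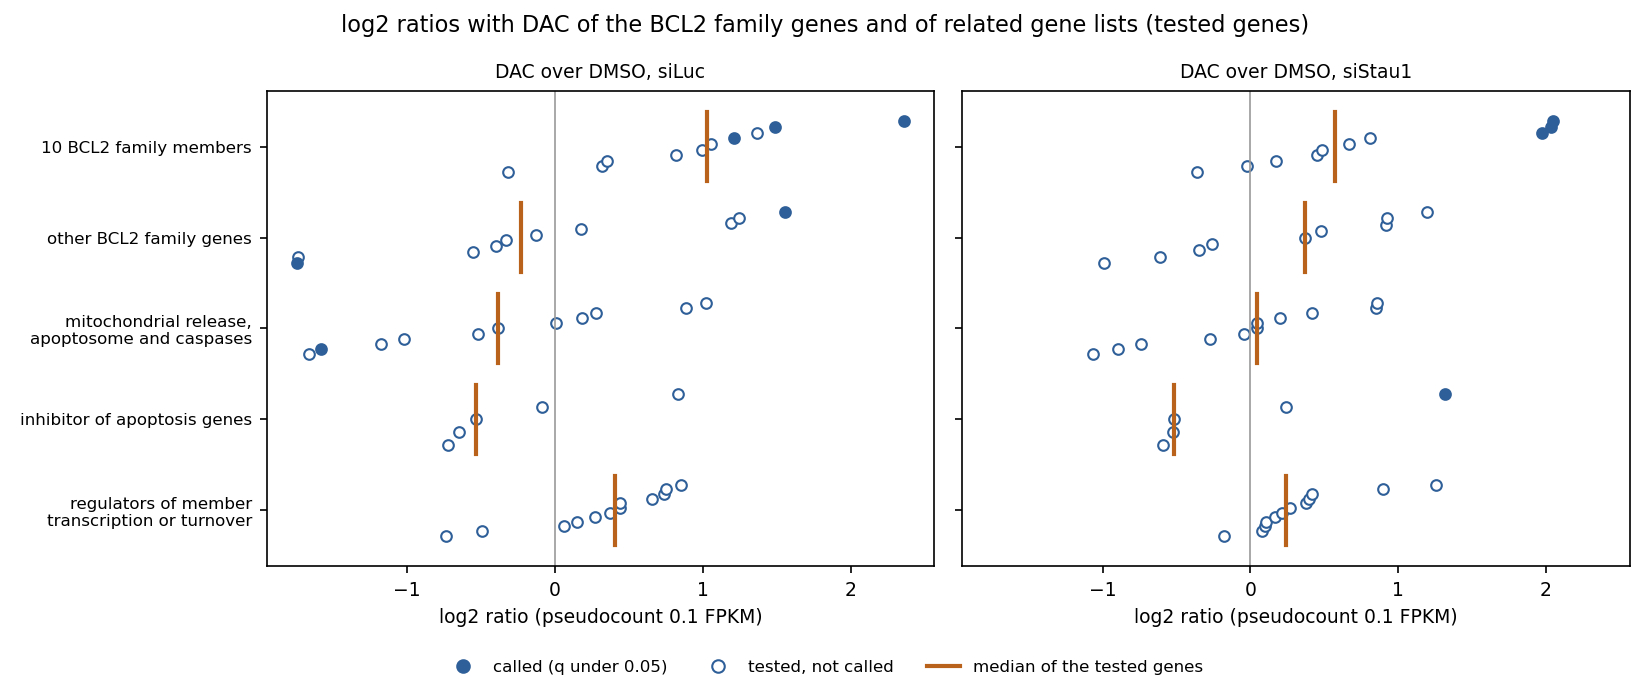
Points give the log2 ratio with DAC of each tested gene of the BCL2 family members and of 4 related lists in siLuc (left) and siStau1 (right), filled where called at a q-value under 0.05, with the median of tested genes as a vertical bar. The members have medians of 1.03 in siLuc and 0.57 in siStau1, and the release, apoptosome and caspase genes have medians of -0.39 and 0.05. Centred within GC bins, which is not drawn, these medians are 0.997 and 0.71, and -0.44 and -0.21.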

How the data were processed

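Total RNA of HCT116 cells was sequenced in 8 libraries, 2 in each of 4 groups. For each gene and group the authors deposited an FPKM value in the layout of Cuffdiff, per the file headers, with p-values and q-values for 6 pairwise comparisons. The submitters' processing notes name HISAT2 2.1.0, Cuffdiff 2.2.1 and build hg38. How libraries were scaled and whether strand was used are not given in the sources used here. No table per library was used, so calls are the authors' q-values under 0.05, with no test, error or depth of this work. The deposited q-value equals the Benjamini-Hochberg value over all 102180 tests within 5.3e-07. The 3 J2 libraries, counted on repeats without gene names, were not used.

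From the FPKM values, log2 ratios with a pseudocount of 0.1, medians, role sums and GC-centred ratios were computed (Python 3.11.15, pandas 2.3.3). Centring used 20 GC bins of protein-coding genes at 1 FPKM or more in both groups, and was tested on simulated data. Positions and GC content come from GENCODE release 29, which holds all 58699 identifiers, and promoters from RefSeq. All members are named. From other lists, genes called in any of 4 comparisons are named, up to 6 a list; STAU1, the called and some other markers and overlapping genes are named beside the results they touch. Some genes of the lists are not reported here. The members and lists were chosen with earlier results of these data known.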

Additional observations from a re-analysis of the deposited data

How the results depend on the processing

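No paired analysis was possible because the table gives 1 value per group and the columns carry no replicate; for the same reason no fit without single replicates was run. At a q-value limit of 0.01 the called members were 1 with DAC in siLuc (BAK1) and 0 for siStau1 against siLuc under DAC, against 3 and 1. Adjusted within each comparison, siStau1 against siLuc under DAC had 0 called members, and the other 3 counts did not change. For the median log2 ratio of the members and its difference between arms, 26 of 30 alternatives moved the value by at most 0.1, and none reversed it. The exceptions were DAC in siStau1 centred within GC bins (0.71), siStau1 against siLuc in DMSO over members with at least 1 FPKM or with BCL2L11 left out, an alternative chosen after seeing the data (-0.39 in each), and siStau1 against siLuc under DAC centred on the median of all genes (-0.18). For single members, GC centring changed the sign of 2 with DAC in siLuc, 3 with DAC in siStau1, 1 between siRNAs in DMSO and 4 between siRNAs in DAC, none of them called. The cause was not tested.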
